A study of Danio rerio with 4 samples.

Results

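Interferon, STAT and IRF genes were followed in livers of fasting zebrafish larvae treated with lipofermata, a small-molecule inhibitor of the fatty acid transporter Slc27a2a (FATP2), or with its solvent DMSO as vehicle. The genes were taken by name, as every row of the deposited count table whose symbol begins with a stem for an interferon receptor, Janus kinase, STAT or IRF factor, SOCS or Usp18 inhibitor, RNA helicase sensor or antiviral effector. The choice was made with earlier results of these data known. It gave 79 of 32058 rows, and 61 of the 79 had enough counts to be tested. All larvae carried the label AB genotype, received 5 μM lipofermata or DMSO for 48 h from 4 dpf with no food given, and were dissected at 6 dpf. Each of the 4 libraries, 2 per group, was made from polyadenylated RNA of the livers of 30 pooled larvae, and nothing in the labels says whether the pools came from separate clutches. The p-values therefore measure only the spread between these pools, which may be technical in part.

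Interferons are secreted cytokines that bind receptor pairs on the cell surface. The receptors carry Janus kinases, which phosphorylate STAT factors. Stat2 and Irf9 take part in the complex that switches on interferon-stimulated genes, while Irf3 and Irf7 act upstream and drive transcription of the interferons themselves. The induced genes block viral replication or tag viral and host proteins, and SOCS proteins and Usp18 damp the signal. Other members of the same families serve quite different ends: Stat3 and Stat5 relay interleukin 6 and growth hormone in the liver, and Irf8 acts in macrophages.

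The libraries held 14997821 to 19368695 counts. Levels are given as CPM, the counts of a gene relative to the depth of its library, where depth was corrected by edgeR's TMM (trimmed mean) factors, and 1 CPM corresponded to 12.2 to 20 counts. A count of 0 in a library allows a level of up to 3 counts, 0.15 to 0.245 CPM, for counting error only. The quasi-likelihood test of edgeR was run over all 14925 genes with enough counts, and a gene is said to rise or fall at an adjusted p under 0.1. The smallest p that 2 pools against 2 allow in an exact permutation test (two-sided, on a single value) is 0.333. The p-values of edgeR go lower because the test borrows its estimate of the spread from other genes. Marker genes of hepatocytes were the most abundant of the cell type lists (summed level 146473 and 178617 CPM with vehicle, 106452 and 110804 CPM with lipofermata), as the label liver requires. The table also holds a row for EGFP, with 8702 and 14749 counts with vehicle and 5879 and 9900 with lipofermata, although the labels name no reporter line.

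A subset of interferon-stimulated genes, led by mxb, ifit14, rsad2 and isg15, was lower in the livers of lipofermata-treated larvae. Most of the tested induced genes did not pass the test, and neither did most receptors, kinases, STAT factors and IRF factors. Of the 61 tested genes, 16 fell, 1 rose and 44 did not pass. Over all tested genes 33.5% passed, 16.9% lower and 16.6% higher. The members that fell thus make up 26.2% against a background of 16.9%, and the single rise makes up 1.64% against 16.6%. A fall of at least 2-fold was seen in 9 of the 61 members, against 1286 of all 14925 tested genes (8.62%). Both mxb and jak3 had enough counts to be tested only through the vehicle libraries, where they were high. Without them 14 of 59 members fell (23.7%), and 7 of the 59 fell by at least 2-fold, both nearer to the shares over all tested genes. The median log2 fold change was -0.21 over the members and -0.03 over all tested genes. In bulk RNA, fewer cells of a type and less RNA per cell cannot be told apart.

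The calls are given next by role, which was assigned from the gene name alone. Whether each gene counted as induced responds to interferon in these livers was not tested. The shares below stand against 16.9% of all tested genes that fell and 16.6% that rose. Of 15 tested induced genes, 6 fell (40%), none rose and 9 did not pass. Their log2 fold changes ran from -5.69 to 1.02, with a median of -0.07. Of 33 tested signal components, 8 fell (24.2%), 1 rose (3.03%) and 24 did not pass, with a median of -0.18. Among 11 tested feedback inhibitors 1 fell (9.09%), with a median of -0.28, and of the 2 RNA sensors 1 fell. These counts include mxb among the induced genes and jak3 among the signal components. Both could be tested only through the vehicle libraries, where they were high, which inflates the share that fell. Whether these classes differ was not tested. The 9 induced genes that did not pass lay between -0.23 and 1.02.

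**Figure D1:**
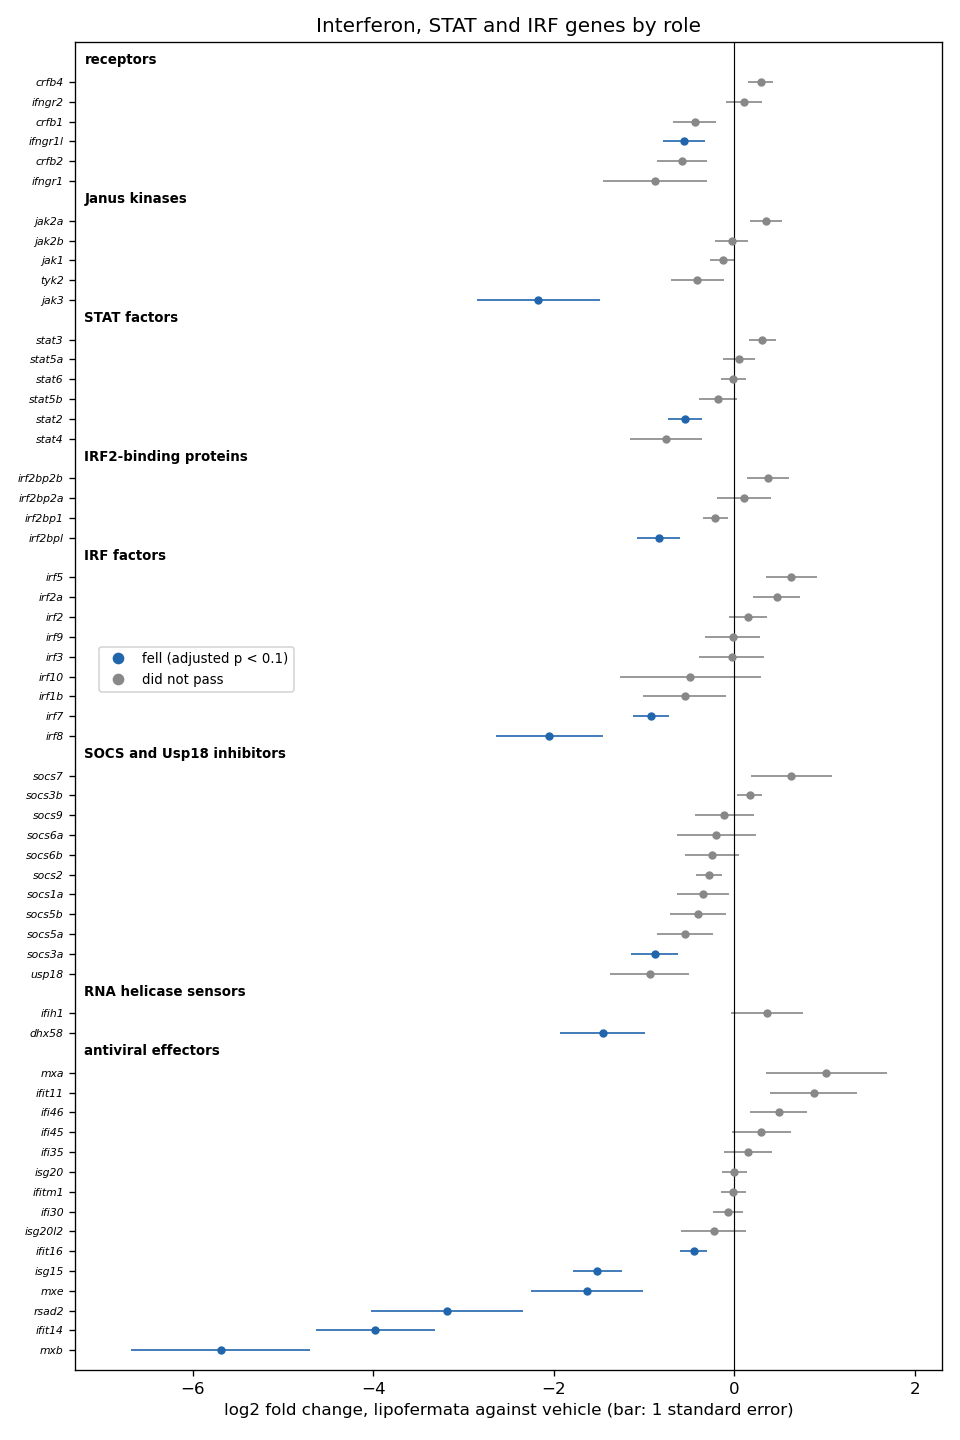
Log2 fold change of 58 tested members (x axis, lipofermata against vehicle; bars, 1 standard error), grouped by role on the y axis. Blue points fell and grey points did not pass at an adjusted p under 0.1. The largest falls shown are mxb (-5.69), ifit14 (-3.98) and rsad2 (-3.18), whereas most STAT, IRF and SOCS genes sit within 1 log2 unit of 0.

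Among the induced genes, mxb lost nearly all its reads. It encodes an Mx protein, a dynamin-like GTPase that is antiviral in other vertebrates. The gene had 28 and 23 counts with vehicle and 1 and 0 with lipofermata (1.55 and 1.88 CPM against 0.05 and 0 CPM). This is 0.0155 times as many after scaling, with a 95% counting interval of 0.000385 to 0.0904. That interval sums the reads of both libraries of a group. It covers counting error only, not the spread between pools. The fitted log2 fold change was -5.69 (standard error 0.99, adjusted p = 0.0028), and leaving out 1 lipofermata library moved it to -7.80 (replicate 1) or -4.90 (replicate 2). Where a library is left out, its group keeps a single library that is assumed to vary like the other group, so such p-values, here and for the other genes, rest on 1 group's spread. No member reached the count minimum only with lipofermata.

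The gene ifit14, of a family of tetratricopeptide proteins that bind viral RNA in mammals, had 10.6 and 4.08 CPM with vehicle and 0.8 and 0.11 CPM with lipofermata. The vehicle libraries differed from each other, but both lay above the lipofermata libraries (log2 fold change -3.98, standard error 0.66, adjusted p = 0.0022). Leaving out vehicle replicate 1 gave -3.11, leaving out lipofermata replicate 1 gave -5.98 and leaving out lipofermata replicate 2 gave -3.20. The gene rsad2 encodes viperin, a radical SAM enzyme that makes a chain-terminating ribonucleotide. Its levels were 10.9 and 3.92 CPM with vehicle and 1.6 and 0 CPM with lipofermata (log2 fold change -3.18, standard error 0.84, adjusted p = 0.02). The lipofermata replicates were 32 and 0 counts. Without vehicle replicate 1 the change was -2.25, without lipofermata replicate 2 it was -2.22, and without lipofermata replicate 1, against a library with 0 counts, the fit gave -9.92. With DESeq2 rsad2 did not pass (adjusted p = 0.47, the highest of its alternatives, the lowest being 8.7e-20).

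The ubiquitin-like modifier gene isg15 had 894 and 342 counts with vehicle and 328 and 196 with lipofermata. Scaled for depth, these were 49.6 and 27.9 CPM against 16.4 and 10.7 CPM, and the groups did not overlap. The fall of isg15 was 2.87-fold (log2 fold change -1.52, standard error 0.27, adjusted p = 0.0031), and it passed in every alternative run, with values from -1.87 to -1.03 when a library was left out. The second Mx gene that fell, mxe, had 2.83 and 2.94 CPM against 1.5 and 0.329 CPM (log2 fold change -1.63, standard error 0.62, adjusted p = 0.078). Its vehicle replicates were alike and its lipofermata replicates were not. Without lipofermata replicate 1 it was -3.10, and without lipofermata replicate 2 it was -0.94 and did not pass (adjusted p = 0.37). It also did not pass with DESeq2 or total-count scaling (adjusted p from 0.0091 to 0.37 over its alternatives). The smallest fall among induced genes was ifit16, at 28.9 and 31.6 CPM against 21.7 and 22.4 CPM (log2 fold change -0.45, standard error 0.15, adjusted p = 0.046). It failed with DESeq2, with total-count scaling and without either of the lipofermata libraries (adjusted p from 0.014 to 0.81).

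**Figure D2:**
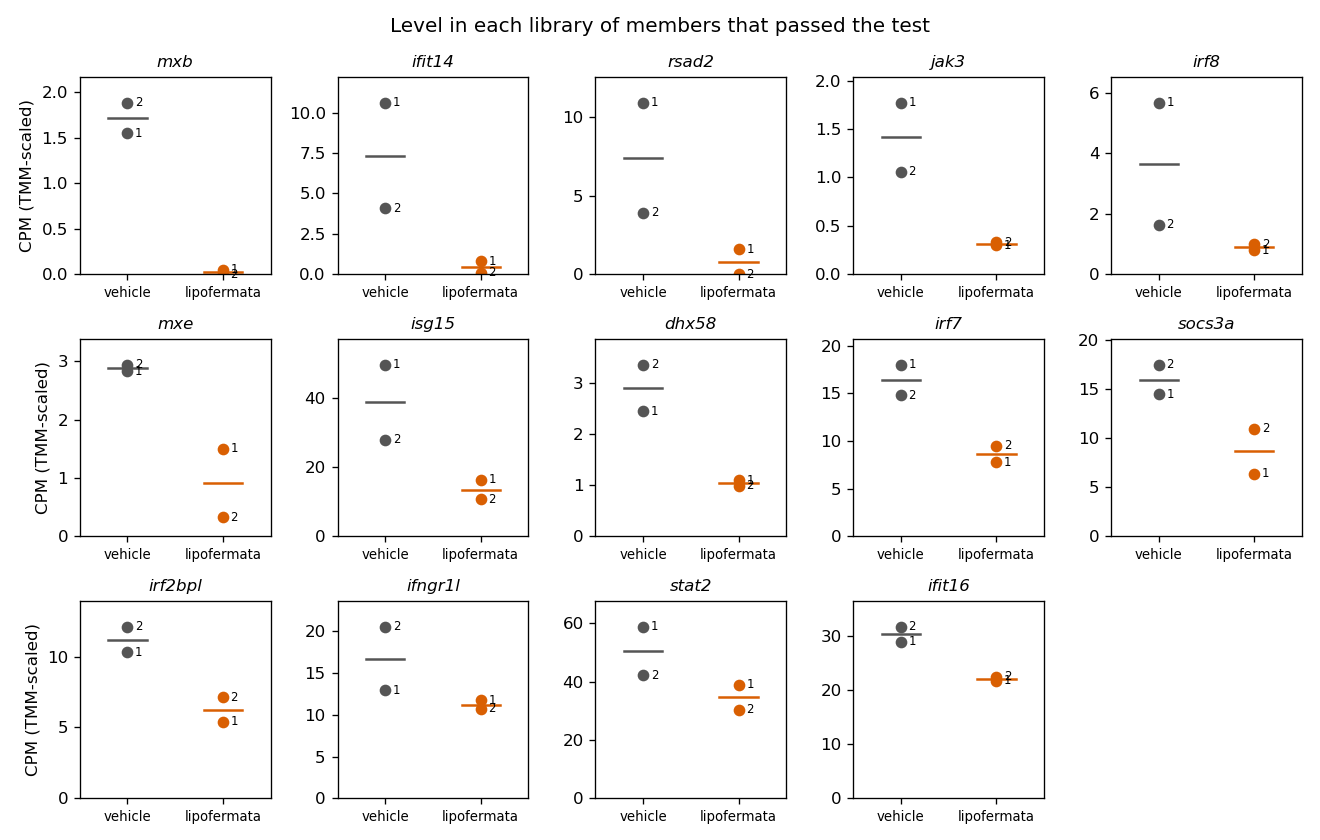
Level in each library of 14 members that passed the test (y axis, TMM-scaled CPM, each panel on its own linear axis from 0; x axis, group). Points are libraries labelled by replicate number and horizontal lines are group means. The groups do not overlap in any panel, but only members that had passed are drawn. Over all tested genes, 32.9% had groups that lay apart and lower with lipofermata. The genes ifit14, rsad2, isg15 and irf8 have a vehicle replicate 1 that stands above vehicle replicate 2.

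The other 9 tested genes with interferon-related names did not pass. Of those with a mean of at least 5 CPM, ifitm1, whose mammalian relatives block viral entry, had 35.2 and 40 CPM with vehicle and 39 and 35.7 CPM with lipofermata (log2 fold change -0.01). The exonuclease gene isg20 had 35.2 and 33.9 CPM against 32.6 and 36.7 CPM (0.00, standard error 0.14). The lysosomal thiol reductase gene ifi30 had 14.7 and 14 CPM against 13.5 and 13.7 CPM (-0.07). For ifi35 the levels were 7.65 and 5.06 CPM against 7.15 and 7.12 CPM (0.15). These 4 genes showed differences smaller than the spread between pools or close to it. With total-count scaling ifitm1 instead had a log2 fold change of 0.39 and passed, as did ifit11 (1.28, adjusted p = 0.06) and ifi46 (0.88, adjusted p = 0.071). The remaining tested genes, ifi45, ifi46, ifit11, isg20l2 and mxa, lay between -0.23 and 1.02. The groups of ifit11 (0.88) and ifi46 (0.49) lay apart and higher with lipofermata, as did those of 4813 of all 14925 tested genes. Those of ifi30 lay apart and lower, as in 32.9% of all tested genes. The highest, mxa, had 0.887 and 0.572 CPM with vehicle and 2.25 and 0.767 CPM with lipofermata. Its log2 fold change was 0.06 without lipofermata replicate 1.

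A further 10 induced genes had too few counts to be tested: ifit8, ifit9, ifit10, ifit12, ifit15, ifitm5, mxc, mxd, mxf and mxg. Of these ifit8, singled out after its values were seen, had 36 and 5 counts with vehicle and 4 and 0 with lipofermata. With no filter on low counts its log2 fold change was -3.47 (adjusted p = 0.0046), and it was the only untested member to pass. For mxd all 8 counts were in vehicle replicate 1. Members of the ifit and mx families are close copies of each other, and how the authors counted reads that match several copies is not given in the sources used here, so their separate values are uncertain to that extent.

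Among the STAT factors, stat2, which carries the interferon signal, had 58.7 and 42.2 CPM with vehicle and 38.9 and 30.3 CPM with lipofermata. It fell (log2 fold change -0.55, standard error 0.19, adjusted p = 0.057). The call was lost with total-count scaling (-0.17, adjusted p = 0.61) and without vehicle replicate 1 (-0.28) or lipofermata replicate 2 (-0.38). Its partner gene irf9 had 3.88 and 4.74 CPM against 4.2 and 4.27 CPM, with overlapping groups (log2 fold change -0.02, standard error 0.30). The genes stat3, stat4, stat5a, stat5b and stat6 did not pass. Of these stat3, which relays interleukin 6, had 21.9 and 21.7 CPM against 25 and 29.1 CPM (0.31, adjusted p = 0.17), and passed with total-count scaling, as did stat5a. The growth hormone effectors stat5a (22.9 and 29.6 CPM against 23.9 and 30.2 CPM) and stat5b (13.3 and 10.3 CPM against 11.2 and 9.64 CPM) had overlapping groups. The interleukin 4 effector stat6 had 26.7 and 26.4 CPM against 26.9 and 26 CPM, a log2 fold change of -0.01 (standard error 0.14). The gene stat4, used by interleukin 12 in lymphocytes, was at -0.76 with an adjusted p of 0.19.

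In the IRF family both irf7 and irf8 fell. The gene irf7, a driver of interferon transcription that is itself induced by interferon, had 18 and 14.8 CPM with vehicle and 7.8 and 9.53 CPM with lipofermata. The replicates were close and the groups apart (log2 fold change -0.92, standard error 0.20, adjusted p = 0.0086). It narrowly failed without lipofermata replicate 1 (adjusted p = 0.101) and with total-count scaling (-0.54, adjusted p = 0.105), the highest over its alternatives, the lowest being 1.6e-05. The gene irf3, the constitutive partner in interferon induction, had 3.94 and 2.94 CPM against 2.65 and 4.16 CPM (-0.03, standard error 0.36). Its log2 fold change ranged from -0.38 to 0.27 when a library was left out. Counted within a library, irf7 reads came to 456% and 503% of irf3 reads with vehicle and 294% and 229% with lipofermata. As irf7 had already fallen, this share adds no separate support, and irf7 and irf3 were not tested against each other.

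The gene irf8, needed for macrophage formation in zebrafish, fell as well, with 5.66 and 1.63 CPM against 0.8 and 0.986 CPM (log2 fold change -2.05, standard error 0.59, adjusted p = 0.028). The high value was in vehicle replicate 1 alone. Without that library the change was -0.86 and did not pass (adjusted p = 0.45, the highest over its alternatives, the lowest being 6.9e-07), without vehicle replicate 2 it was -2.66, and without lipofermata replicate 1 the adjusted p was 0.103. The summed level of 21 macrophage markers other than irf8 was 197 CPM in vehicle replicate 1 and 55 CPM in vehicle replicate 2, against 57.5 and 69.4 CPM with lipofermata. The sum was thus highest in the same library as irf8. Of 18 tested markers on the list, irf8 included, 9 fell (50% against 16.9% of all tested genes). Both lipofermata libraries lay below both vehicle libraries in 6 of the 18, against 32.9% of all tested genes. Among those that fell, lcp1 had 16.3 and 5.55 CPM against 3.9 and 4.71 CPM. The groups overlapped for marco, which also fell, with 24 and 4.16 CPM against 5.7 and 4.38 CPM. Log2 fold changes were below 0 in 16 of the 18, but not for mpeg1.2 (0.20) and ctss2.1 (0.03). The part of macrophages in the result for irf8 was not tested. The defining markers mpeg1.1 (9.09 and 2.78 CPM against 3.2 and 4.27 CPM) and csf1ra (14.4 and 2.53 CPM against 4.75 and 7.29 CPM) did not pass.

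Others of the IRF genes did not pass. Of these irf2 (10.1 and 9.23 CPM against 12 and 9.48 CPM), irf2a (8.15 and 5.14 CPM against 9.94 and 8.65 CPM) and irf5 (4.82 and 3.76 CPM against 6.3 and 7.12 CPM) had means of at least 5 CPM. The gene irf5, which acts downstream of Toll-like receptors in mammals, had the highest log2 fold change of them (0.63, adjusted p = 0.12). Both irf5 and irf2a passed without vehicle replicate 1 and with total-count scaling. Also in this group, irf1b had 4.77 and 1.96 CPM against 2.8 and 1.86 CPM and passed without vehicle replicate 2 (-1.03), whereas without vehicle replicate 1 it was 0.26. Too few counts were found for irf1a (6 and 4 counts against 0 and 0), irf4a (0 and 0 against 9 and 6) and irf4b. With the empty group set to a floor of 3 counts in all, irf1a was at least 4.21-fold lower and irf4a at least 3.96-fold higher with lipofermata, taking the counts of the other group as exact. Neither passed with no filter on low counts (adjusted p = 0.18 for irf1a and 0.12 for irf4a).

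The IRF2-binding proteins, corepressors matched by their names, were mixed. The gene irf2bpl fell from 10.3 and 12.1 CPM to 5.4 and 7.12 CPM (log2 fold change -0.84, standard error 0.24, adjusted p = 0.026), and did not pass with total-count scaling or without lipofermata replicate 1 (adjusted p from 0.0023 to 0.23). The others did not pass: irf2bp1 had 35 and 36.6 CPM against 32.6 and 29.4 CPM, irf2bp2a 8.7 and 18.9 CPM against 14.2 and 15.2 CPM, and irf2bp2b 74.5 and 128 CPM against 112 and 149 CPM. For irf2bp2b the call turned on the setting, since it rose with the replicate number as a block, with no filter, with total-count scaling and without vehicle replicate 2 (0.81), and was at 0.04 without vehicle replicate 1. The change of irf2bp2a was 0.76 and passed without vehicle replicate 2 (adjusted p = 0.0049, the lowest over its alternatives, the highest being 0.94), and was -0.35 without vehicle replicate 1.

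Of 6 tested receptor genes 1 fell, ifngr1l (16.7%, close to the 16.9% of all tested genes). The median log2 fold change of the 6 was -0.50. The zebrafish type I interferons signal through receptors that contain Crfb1 or Crfb2. The gene crfb1 had 8.04 and 8.17 CPM with vehicle and 5.55 and 6.41 CPM with lipofermata (log2 fold change -0.44, adjusted p = 0.21), and its neighbour crfb2 had 7.21 and 5.55 CPM against 4.6 and 3.94 CPM (-0.58, adjusted p = 0.16). In 4 of the 6 receptor genes, crfb1 and crfb2 among them, both lipofermata libraries lay below both vehicle libraries, as in 32.9% of all tested genes. Without vehicle replicate 2, crfb2 passed (-0.75, adjusted p = 0.066, with a highest of 0.64 over its alternatives). The subunit crfb4 of the interleukin 10 receptor had 35.2 and 35 CPM against 43.8 and 41.8 CPM (0.29, adjusted p = 0.15), and passed with total-count scaling.

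Of the interferon gamma receptor genes, ifngr2 had 17.9 and 13.3 CPM against 18.6 and 15.2 CPM (log2 fold change 0.11) and ifngr1 was low, at 0.7 to 1.55 CPM (-0.88, adjusted p = 0.3). The gene ifngr1l fell by the narrowest margin of all members, from 12.9 and 20.5 CPM to 11.7 and 10.7 CPM (-0.56, standard error 0.23, adjusted p = 0.0998). It did not pass with DESeq2, limma voom, DESeq2 size factors, total-count scaling or without vehicle replicate 2 (-0.20) or either lipofermata replicate (adjusted p from 2.0e-04 to 0.62). The receptor genes crfb12, crfb15 and crfb16 had too few counts.

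Of the Janus kinases only jak3, which serves the common gamma chain of lymphocyte receptors, passed. It had 1.77 and 1.06 CPM with vehicle and 0.3 and 0.329 CPM with lipofermata (log2 fold change -2.17, standard error 0.68, adjusted p = 0.04). These are 32 and 13 counts against 6 and 6, and the call was lost with DESeq2 and without vehicle replicate 1 or either lipofermata replicate (adjusted p from 0.036 to 0.26). The summed level of 12 lymphocyte markers was 4.55 and 3.18 CPM with vehicle and 0.999 and 0.438 CPM with lipofermata. Of these markers 11 had too few counts to be tested, and cd8a, rag1 and cd79b were at 0 in all libraries. The only tested marker, il2rgb, had 2.16 and 0.817 CPM against 0.2 and 0.11 CPM. The defining marker lck had 1 and 6 counts against 2 and 0. The part of lymphocytes in the fall of jak3 was not tested. The kinase genes with broad roles did not pass with all libraries. The levels of jak1 were 131 and 129 CPM against 114 and 124 CPM (-0.13, standard error 0.14), those of jak2a 14.3 and 18.1 CPM against 22 and 19.2 CPM (0.35), those of jak2b 28.3 and 36.7 CPM against 28 and 35.4 CPM (-0.03) and those of tyk2 13.7 and 7.19 CPM against 7.6 and 8.27 CPM (-0.41). The gene jak2a passed with total-count scaling (0.75, adjusted p = 0.016) and without vehicle replicate 2 (0.53, adjusted p = 0.03), with a highest adjusted p of 0.63. For tyk2 the vehicle replicates disagreed: it fell without vehicle replicate 2 (-0.79, adjusted p = 0.0053) and was at 0.15 without vehicle replicate 1.

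Among the feedback inhibitors, socs3a, which blocks signaling from the interleukin 6 receptor, fell from 14.5 and 17.5 CPM to 6.4 and 11 CPM (log2 fold change -0.88, standard error 0.26, adjusted p = 0.029). The call was lost with total-count scaling and without lipofermata replicate 1 (-0.54, adjusted p = 0.27, with a lowest of 5.9e-05). Its paralog socs3b had 30.9 and 32.8 CPM against 34 and 37.6 CPM, a log2 fold change of 0.17 (adjusted p = 0.42). The growth hormone inhibitor socs2 had 38 and 39 CPM against 31.6 and 31.8 CPM (-0.28, adjusted p = 0.16). The levels of socs1a, the inhibitor of interferon gamma signaling, were 6.99 and 6.78 CPM against 6.7 and 4.05 CPM (-0.35). For socs5a they were 6.04 and 10.9 CPM against 5.05 and 6.41 CPM (-0.55), and for socs6b 10.2 and 5.55 CPM against 7.2 and 6.24 CPM (-0.25). None of these passed, and neither did socs5b, socs6a, socs7 and socs9, between -0.40 and 0.63. In alternatives, socs5a passed without vehicle replicate 1 (-0.92, adjusted p from 0.0055 to 0.89), socs6b without vehicle replicate 2 (-0.60, adjusted p from 0.078 to 0.85) and socs3b with total-count scaling (0.56, adjusted p from 0.026 to 0.83). Without vehicle replicate 1, socs6b was at 0.28. The gene usp18, which removes Isg15 from proteins and is induced by interferon, had 3.66 and 2.2 CPM against 1.6 and 1.48 CPM. Its groups lay apart and lower with lipofermata, as in 32.9% of all tested genes. It did not pass (-0.94, standard error 0.44, adjusted p = 0.14), except without vehicle replicate 2. The genes socs1b and socs4 had too few counts.

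Of the RNA helicase sensors, dhx58 (LGP2) fell from 2.44 and 3.35 CPM to 1.1 and 0.986 CPM (log2 fold change -1.46, standard error 0.47, adjusted p = 0.043). Its counts were 44 and 41 against 22 and 18. It did not pass with DESeq2, with total-count scaling or without vehicle replicate 2 or either lipofermata replicate (adjusted p from 0.021 to 0.2). The sensor gene ifih1 (MDA5) had 2.38 and 1.8 CPM against 2.8 and 2.63 CPM (0.36, adjusted p = 0.55).

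Genes of the pathway with other names were counted over whole lists, which, like the members, were chosen with earlier results of these data known. Of 16 tested genes of interferon production and sensing, 1 fell (6.25% against 16.9% of all tested genes) and none rose (against 16.6%). The median of their log2 fold changes was -0.16. The gene that fell was pkz, a fish kinase that senses Z-form nucleic acids, from 4.44 and 2.29 CPM to 0.899 and 0.383 CPM (-2.38, standard error 0.57, adjusted p = 0.013). The adaptor gene mavs (21 and 24 CPM against 16.2 and 20.8 CPM) and the kinase gene tbk1 (45.7 and 45.6 CPM against 44.9 and 51.2 CPM) did not pass. The interferon genes themselves were at the edge of detection: ifnphi1 had 4 and 4 counts with vehicle and 0 and 4 with lipofermata, ifnphi3 had 2 counts in lipofermata replicate 2 alone, and ifnphi2, ifnphi4 and ifng1 had 0 counts in all 4 libraries, so that no difference in them was detectable at this depth.

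Of 26 tested interferon-induced genes outside the name rule, 7 fell, 1 rose and 18 did not pass (median -0.18). The shares were 26.9% lower and 3.85% higher, against 16.9% and 16.6% of all tested genes. The TRIM gene ftr83 fell from 6.21 and 7.02 CPM to 2.6 and 2.41 CPM (-1.40, adjusted p = 0.0075). The death ligand gene tnfsf10 fell as well (log2 fold change -2.14). The helicase gene helz2 fell from 5.54 and 3.1 CPM to 1.05 and 0 CPM. The gene that rose was psme1, a proteasome activator subunit, from 6.04 and 4.08 CPM to 12.9 and 10.4 CPM (1.18, adjusted p = 0.0084). Next to rsad2 lies cmpk2, a nucleotide kinase gene that was not tested, with 20 and 8 counts with vehicle and 0 and 4 with lipofermata.

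Of 17 tested cytokine receptor genes that use Janus kinases, 6 fell (35.3% against 16.9% of all tested genes). Only 1 rose (5.88% against 16.6%), and the median log2 fold change was -0.40. The growth hormone receptor gene ghrb fell from 43.9 and 50 CPM to 26.7 and 27.2 CPM (-0.80, adjusted p = 0.0032). The leukemia inhibitory factor receptor gene lifrb (log2 fold change -1.61) and the common gamma chain gene il2rgb (-3.22) fell as well. For il2rgb the counts were 39 and 10 with vehicle and 4 and 2 with lipofermata, and it is also among the lymphocyte markers. The paralogs ghra (-0.29) and lifra (-0.36) did not pass, and il2rga had too few counts. The gene il20ra rose from 9.37 and 12.4 CPM to 23.3 and 22.6 CPM (1.08, adjusted p = 0.0026). Of 19 tested genes for other inhibitors of Jak and STAT signaling, 3 fell and none rose, with a median of -0.22. The share that fell, 15.8%, was close to the 16.9% of all tested genes. Those that fell were the phosphatase genes dusp2 (-1.08) and ptpn6 (-1.55) and the ubiquitin ligase gene cblb (-0.72).

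Of the genes that lie side by side in the genome, some had unlike changes and others had closer values, which were not tested against each other. By the gene order of the RefSeq assembly GRCz12tu, mxa and mxb are neighbours, and ifit16, ifit15 and ifit14 follow each other with no protein-coding gene between them. Within a library, mxb reads came to 175% and 329% of mxa reads with vehicle and to 2.22% and 0% with lipofermata. In the same way ifit14 reads were 36.7% and 12.9% of ifit16 reads with vehicle and 3.68% and 0.489% with lipofermata. Neither share depends on the scaling. The groups did not overlap in either share, but mxb and ifit14 already had the largest falls among the members, so this adds no separate support. The shares also compare close copies, whose separate values are uncertain as said above. The neighbours crfb1 (-0.44) and crfb2 (-0.58) had closer log2 fold changes, as had stat3 (0.31) and stat5a (0.05).

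Some of the interferon-stimulated genes that fell also differed between replicates, and in the same direction in both groups. On the log2 scale of CPM plus 0.5, replicate 1 exceeded replicate 2 by 1.27 with vehicle and 1.09 with lipofermata for ifit14, by 1.36 and 2.07 for rsad2, and by 0.82 and 0.59 for isg15. They are among 4 of 61 tested members (6.56%) with a difference of at least 0.5 in both groups, against 1.8% of all tested genes, and no member had the reverse. Across the 61 members the replicate differences of the groups had a Pearson correlation of 0.44, against 0.05 across 14925 genes. Each axis of that comparison rests on a single pair of libraries, so the correlation describes these libraries and no more. The gene irf8 did not share the pattern, with 1.53 with vehicle and -0.19 with lipofermata, nor did mxb, with -0.21 and 0.14.

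**Figure D3:**
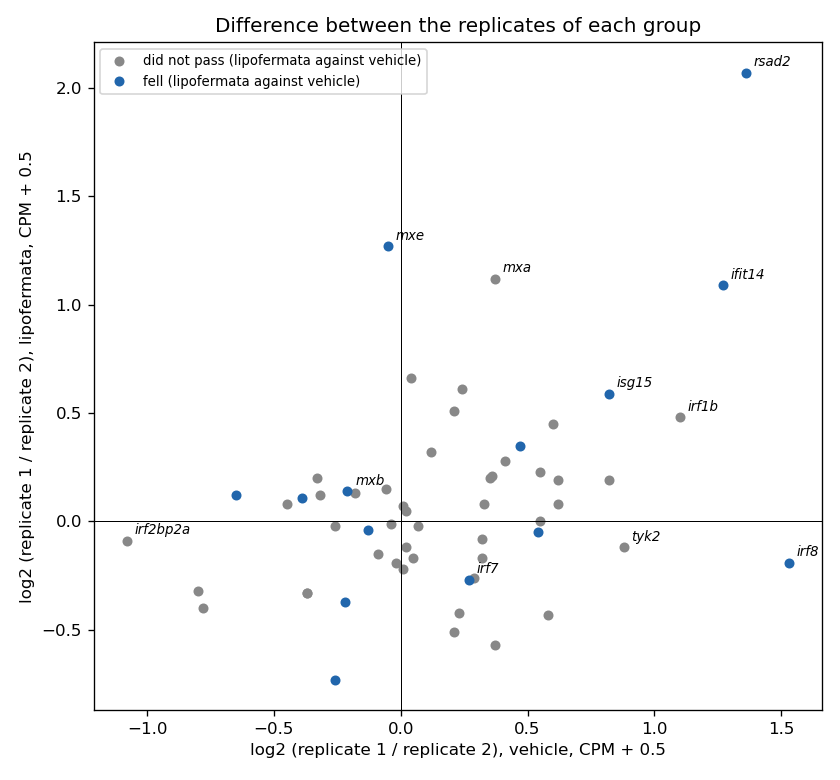
Difference between replicate 1 and replicate 2 of the vehicle group (x axis) and of the lipofermata group (y axis), as log2 of the ratio of CPM plus 0.5, for 58 tested members; colours give the change with treatment. The points for rsad2, ifit14 and isg15 lie at the upper right, higher in replicate 1 of both groups, and irf8 lies at 1.53 on the x axis and -0.19 on the y axis.

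Markers of some cell types, in the liver and outside it, moved with treatment in these libraries. Of all tested genes 16.9% fell and 16.6% rose. Of 26 tested endothelial markers 22 fell (84.6%) and 1 rose (3.85%). Their summed level was 1099 and 963 CPM with vehicle and 307 and 297 CPM with lipofermata. Of 12 tested markers of stellate and mural cells 9 fell (75%) and none rose. Of 11 tested neutrophil markers 2 fell (18.2%, close to the share over all tested genes) and 1 rose (9.09%). Levels of mpx were 31.9 and 27.8 CPM against 19.7 and 43.3 CPM, and lyz was at 0 in all libraries. Of 28 tested hepatocyte genes 14 fell (50%) and 1 rose (3.57%). Some lists of tissues outside the liver moved as well. Of 10 tested epidermis markers 6 fell (60%) and 1 rose (10%), with sums of 587 and 764 CPM against 172 and 194 CPM. Of 6 tested muscle markers 3 fell (50%) and none rose. Of 14 tested pancreas markers none fell and 1 rose (7.14%), with sums of 4161 and 9263 CPM against 10798 and 4940 CPM. The part of these cell types and tissues in the results for the interferon genes was not tested.

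Many of the smaller calls changed with the scaling or when a library was left out. Scaled by total counts alone, the median of all tested genes moved up by 0.39, 5092 genes rose and 1182 fell (81.2% of calls higher in place of 49.5%), and 7 members fell and 12 rose. Among the members that fell under both scalings were jak3, irf8, isg15, ifit14, mxb and rsad2, and none of the 16 changed sign. Leaving out either lipofermata library lowered the number of members that fell. The share over all tested genes in those runs is not given here. In all, 5 members passed in every alternative run, among them mxb, ifit14 and isg15, and the other 12 failed in at least 1. These runs reuse the same 4 libraries, and where a library was left out its group kept a single one. In the main test mxb had enough counts only through the vehicle libraries, where it was high. Of the 44 members that did not pass, 17 passed in at least 1 alternative without a change of sign, 6 of them with total-count scaling alone. A further member, ifitm1, passed with total-count scaling after a change of sign (-0.01 against 0.39).

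**Figure D4:**
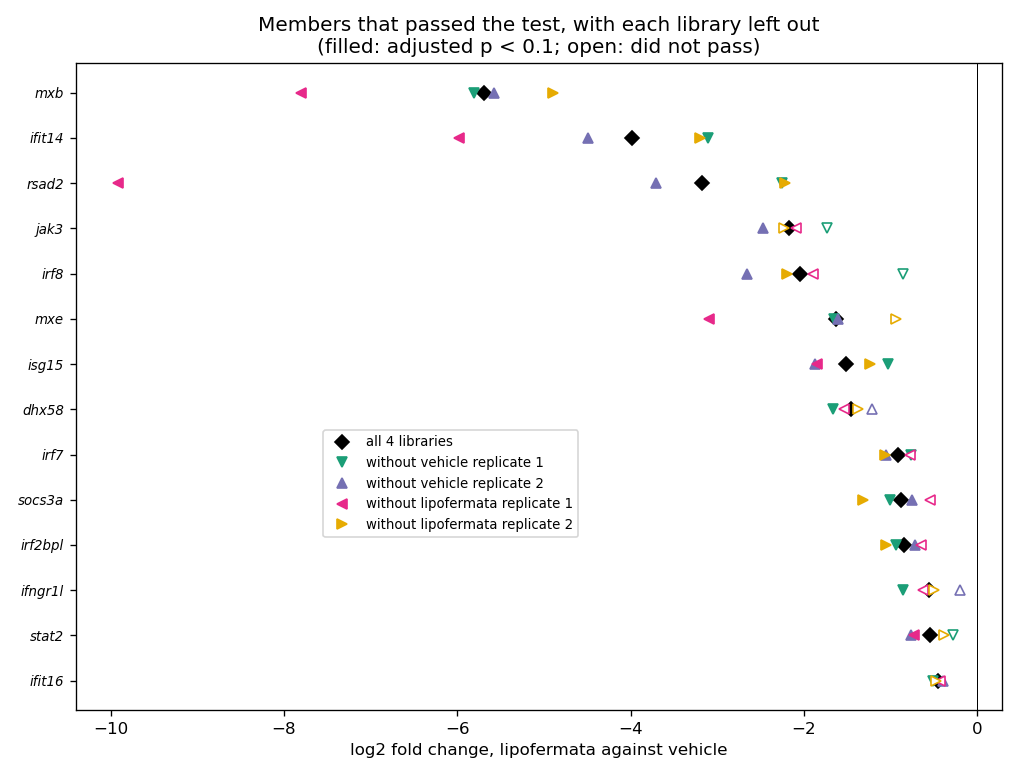
Log2 fold change of 14 members that passed the test (x axis; genes on the y axis) with all 4 libraries and with each library left out. Filled symbols passed at an adjusted p under 0.1 and open symbols did not. The values for mxb, ifit14, rsad2 and isg15 stay filled throughout, and rsad2 reaches -9.92 without lipofermata replicate 1.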

How the data were processed

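Polyadenylated RNA of 4 liver pools was sequenced with a stranded kit. The submitters' processing notes name GRCz11, HISAT2 and featureCounts, by which the authors obtained gene counts. Neither versions nor the annotation release nor the strand option is given in the sources used here, and reads of overlapping or near-identical genes may be split or lost. The deposited values are raw counts, not normalized, and every column was used. No gene name is given for 28 rows.

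The comparison used edgeR 4.0.16 under R 4.3.3, with filterByExpr (minimum count 10), TMM and the quasi-likelihood F test on treatment alone. Alternatives used limma 3.58.1 and DESeq2 1.42.0. P-values were adjusted by Benjamini-Hochberg over all 14925 genes, at the study's threshold of 0.1. The standard error is the size of the log2 fold change divided by the square root of F. On simulated counts for these 14925 genes, 83 of 100 genes changed by 2 log2 units and 50 of 100 changed by 1 were recovered, with 11 false calls. In the simulation only those genes changed, and the spread followed the trend over all genes. In the data 33.5% of tested genes passed, so these rates may not carry over. Every member that passed is named with its level in each library, apart from some that are not reported here and not drawn in the figures, as are tested members with a mean of at least 5 CPM. From each other pathway list at most 4 genes that passed, those with the smallest p, are named. Members and lists were chosen with earlier results of these data known. Symbols of 75 members matched RefSeq directly and 4 by synonym. No sequences are shown. Figures were drawn with matplotlib 3.10.9. Alternatives were other scalings, filters, tools and thresholds, the replicate number as a block, and leaving out each library. The raw reads were not analysed here.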

Additional observations from a re-analysis of the deposited data

How the results depend on the processing

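The counts of members that fell (16) and rose (1) became 7 and 12 with total-count scaling, and the count that fell became 10 with DESeq2. The count that rose became 2 with no filter on low counts. Leaving out a library gave 8 to 20 that fell and 1 to 4 that rose. The signal components that fell (8) became 3 with total-count scaling, 5 with DESeq2 and 5 at an adjusted p under 0.05, with 2 to 10 when a library was left out, and those that rose (1) became 8 with total-count scaling and 2 with no filter, with 1 to 4. The feedback inhibitor that fell (1) became 0 with total-count scaling, where 1 rose, with 0 to 3 when a library was left out. No induced gene rose, but 3 did with total-count scaling. Only ifitm1 changed sign together with its call (-0.01 against 0.39 with total-count scaling). Replicate numbers share no stated source, and the deviations of same-numbered pools had a correlation of 0.0543 across 14925 genes. With the replicate number as a block, 2 members rose in place of 1, both of them signal components, and all 17 calls held. Apart from the shift of the median by total-count scaling, the causes of these differences were not tested. Low counts limit jak3, mxb, mxe and the 18 untested members.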
